A study of Xenopus tropicalis with 21 samples.

Results

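Sphingosine-1-phosphate receptor 3, s1pr3, and 9 other genes of blood and lymph vessels were followed in the liver of the tropical clawed frog, Xenopus tropicalis. The 10 genes were found by symbol among the 20288 rows of each of the 2 tables the authors deposited, and each matched 1 row. They are the receptors s1pr3, s1pr1 and s1pr2, the receptor tyrosine kinases kdr, tek and tie1, the cadherin gene cdh5, and the scavenger and hyaluronan receptors stab1, stab2 and lyve1. The first was selected on its F1 values, a fall in the deposited fold change that passed the authors' test, so those values are described here and not tested. Of the others, kdr, cdh5, tek, tie1, stab1, stab2 and lyve1 were taken as known endothelial genes, and s1pr1 and s1pr2 are receptors of the same family. All were chosen with earlier results of these data known.

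Livers came from mature females, with 6 frogs in the F1 BaP group, 5 in F1 control, 5 in F2 BaP and 5 in F2 control. F0 ancestors of the BaP groups were kept in benzo[a]pyrene (BaP), a polycyclic aromatic hydrocarbon, at 50 ng/L from the tadpole to the adult stage. No F1 or F2 frog was itself kept in BaP, so "BaP" names a lineage, and BaP frogs were set against controls of the same generation. Each table gives 1 FPKM (fragments per kilobase, scaled to library size) per gene and group, with no value for a single frog, so no SD can be given and library depths are unknown.

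Sphingosine-1-phosphate (S1P) is a lipid signal made by sphingosine kinases, exported into blood and lymph, and read by G protein-coupled receptors. In mammals S1PR1 signals through Gi and keeps the endothelial barrier tight, S1PR2 acts mainly through G12/13, and S1PR3 couples to Gi, Gq and G12/13 and is found on endothelium and vascular muscle. KDR is the main receptor of VEGF-A, TEK and TIE1 form the angiopoietin receptor system, and VE-cadherin (CDH5) joins endothelial cells to each other. The stabilins and LYVE1 mark the sinusoidal endothelium of the mammalian liver, which clears hyaluronan and other waste from blood.

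The livers held strong hepatocyte transcripts. Hepatocyte markers summed to 25144 FPKM in F1 BaP and 19473 in F1 control, and to 19924 in F2 BaP and 22662 in F2 control. These sums leave out genes such as alb that the authors' deposited tables mark as having too much data. The gene tf, at 2258 FPKM in F1 BaP and 1872 in F1 control, was so marked in F2 only. The sums of F1 and F2 thus cover different genes. None of the 10 vascular genes was listed at 0 in any group. In bulk tissue, fewer cells of a type and less RNA per cell cannot be told apart.

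The gene s1pr3 lies on chromosome 1 of assembly UCB_Xtro_10.0, from 137733939 to 137747392. It had 0.205 FPKM in F1 BaP livers and 4.55 FPKM in F1 control livers. In F2 it had 0.00393 FPKM in BaP livers and 0.111 FPKM in control livers. The F1 control group thus stood alone, with a level 22.2 times that of F1 BaP, and the remaining groups were all low. In F1 BaP the gene was at percentile 31.5 of all rows by FPKM, and in F1 control at percentile 66.4. In F2 it was at percentile 13.2 in BaP and 29.3 in control.

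The authors' deposited table for F1 lists s1pr3 at a log2 fold change of -4.47, number 3 from the bottom of the 129 genes called lower with a finite value. That fall was the reason for choosing the gene. With 1 added to each FPKM, the F1 log2 value is -2.20. The authors did not test s1pr3 in F2, where the authors' deposited table lists a log2 fold change of -4.82. There both levels were close to 0, and adding 0.1 or 1 to each FPKM brings the F2 value to -1.02 or -0.15. The F2 table therefore gives no test of the fall seen in F1.

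Among the other S1P receptors, none was called in either generation. The table for F1 has s1pr1 (chromosome 4, 109056787 to 109062826) at 1.201 FPKM in BaP and 0.891 in control, and F2 has it at 1.44 in BaP and 1.41 in control. In the authors' deposited tables its log2 fold change was 0.43 in F1 (q = 0.938) and 0.03 in F2 (q = 0.999). The q is the p-value of the authors' Cuffdiff test adjusted over all genes, and a gene was called where q was under 0.05. An approximate 95% interval, computed from the deposited fold change and p, ran from -0.25 to 1.11 for s1pr1 in F1 and from -0.48 to 0.54 in F2.

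The levels of s1pr2 (chromosome 3, 137139717 to 137169125) ran the other way across the generations from those of s1pr3. F2 livers had 2.76 FPKM in BaP and 4.10 FPKM in control, while F1 livers had 0.336 FPKM in BaP and 0.192 FPKM in control. The row was not tested in F1, where the authors' deposited table lists a log2 fold change of 0.80, or 0.16 with 1 added to each FPKM. In F2 the authors' deposited table gives -0.57 (unadjusted p = 0.0580, q = 0.589, interval -1.16 to 0.02).

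The remaining receptors, s1pr4, a receptor of blood cells in mammals, and s1pr5, were not called either. For s1pr4 the levels were 2.05 FPKM in F1 BaP and 1.79 in F1 control, and 0.947 in F2 BaP and 0.937 in F2 control. For s1pr5 they were 1.44 and 1.16 in F1 BaP and F1 control, and 1.19 and 1.21 in F2 BaP and F2 control. None of the 4 tests of these genes was called by Cuffdiff, and none had an unadjusted p under 0.05. The authors' deposited tables list log2 fold changes for s1pr4 and s1pr5 of 0.19 and 0.31 in F1 and of 0.015 and -0.03 in F2. The intervals for s1pr4 were -0.55 to 0.94 in F1 and -0.80 to 0.83 in F2, and those for s1pr5 were -2.92 to 3.54 in F1 and -1.37 to 1.32 in F2.

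Since FPKM is scaled to length, the receptors can be ranked within a group. The ends of the s1pr5 row differ from those of its annotated gene, which limits its rank. In F1 BaP livers s1pr4 led with 39.2% of the summed receptor FPKM, and s1pr3 was last with 3.93%. In F1 control livers s1pr3 led with 53.0%, and s1pr2 was last with 2.24%. In F2 s1pr2 led, with 43.6% in BaP and 52.8% in control, and s1pr3 was last in both. The summed level was 5.23 FPKM in F1 BaP against 8.59 in F1 control, and 6.34 in F2 BaP against 7.77 in F2 control. In F1 the lower sum in BaP came from s1pr3 alone, through the values that chose it. The levels of s1pr1, s1pr2, s1pr4 and s1pr5 were each higher in F1 BaP than in F1 control, none called.

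**Figure D1:**
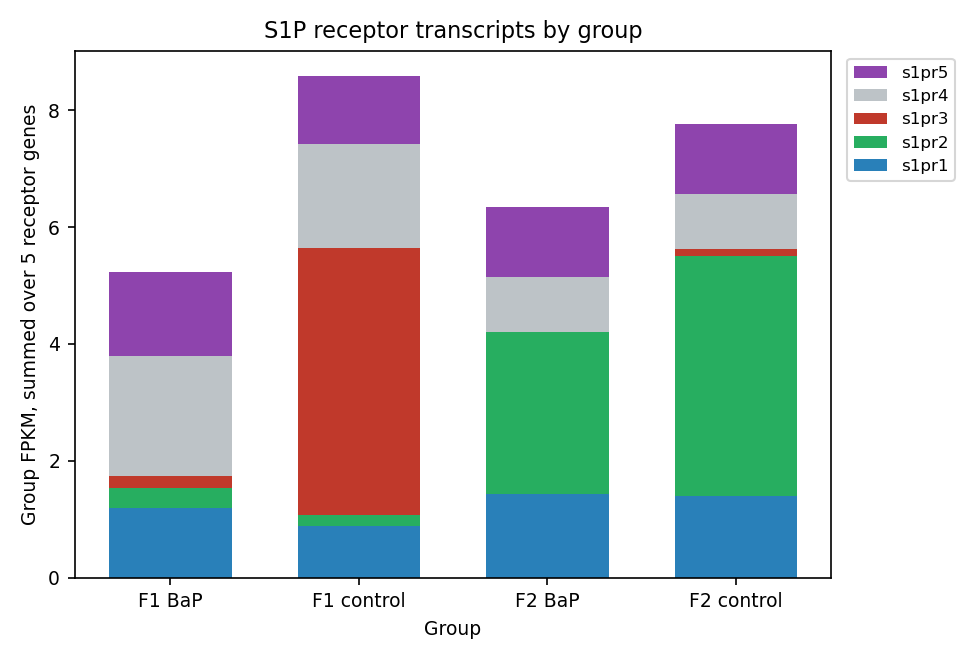
Stacked bars of group FPKM for the S1P receptor genes s1pr1 to s1pr5 in the 4 groups; each bar is the sum of the authors' group values, with no error because the tables hold none. The s1pr3 segment is large in F1 control (4.55 FPKM) and 0.205 FPKM or less elsewhere, and the s1pr2 segment is large in both F2 groups.

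Apart from s1pr3, none of the 10 genes was called in either generation. Of the 9 listed genes other than s1pr3, 8 were tested in F1 and 8 in F2, and Cuffdiff called 0 in either, where it called 1.67% of all tested rows in F1 and 1.32% in F2. At an unadjusted p under 0.05 there were 0 in F1 and 1, stab1, in F2, against 8.91% and 8.9% of all tested rows. With s1pr3 counted, 1 of 9 tested genes was called in F1, which the choice of that gene fixed. The median log2 fold change of the 8 was 0.06 in F1 and -0.08 in F2, beside 0.02 and -0.03 over all tested rows.

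**Figure D2:**
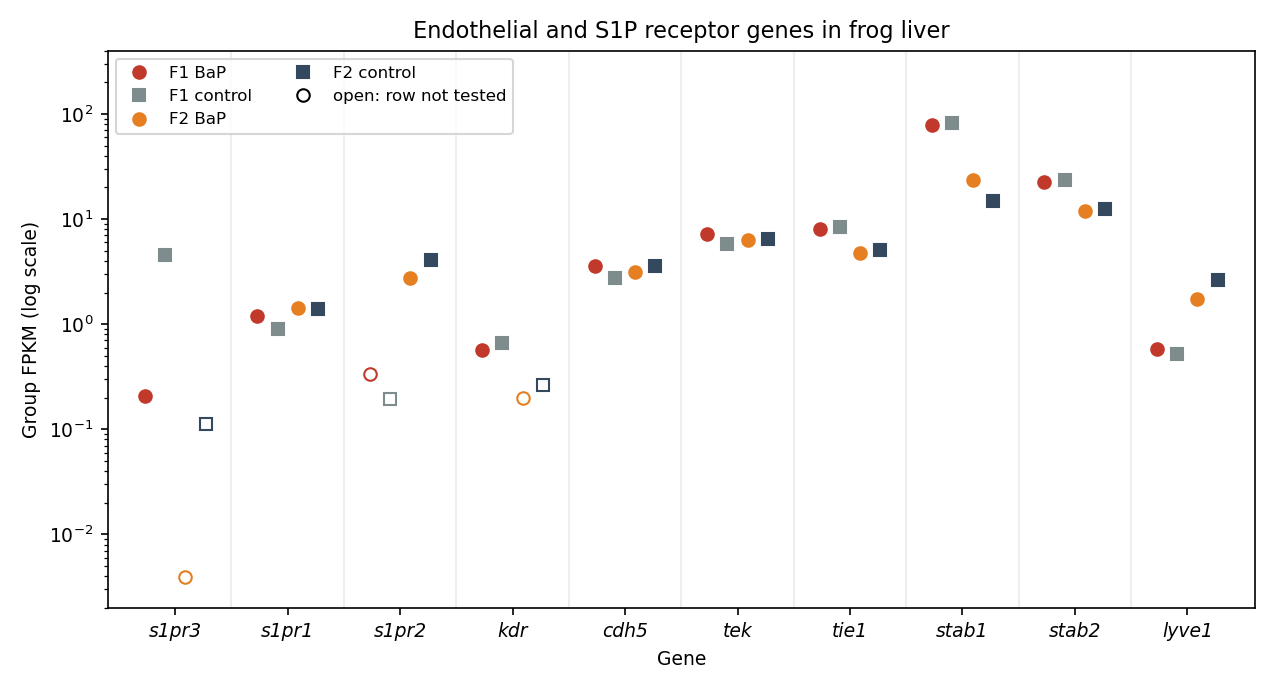
Group FPKM (log axis) of the 10 genes in F1 BaP, F1 control, F2 BaP and F2 control livers; each symbol is the authors' 1 value per group, and open symbols mark rows not tested. The s1pr3 symbols span from 0.00393 to 4.55 FPKM, while cdh5 and tek stay within 2.75 to 7.24 FPKM in every group.

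The VEGF receptor gene kdr (chromosome 1, 40280375 to 40301888) was low. It had 0.571 FPKM in F1 BaP and 0.663 in F1 control, and the authors' deposited table puts its log2 fold change at -0.22 (q = 0.9995, interval -0.91 to 0.48). In F2 it had 0.198 FPKM in BaP and 0.262 in control and was not tested. Its relatives flt1 and flt4 were low as well, at 0.0295 FPKM or less and at 0.548 FPKM or less in every group, and neither was tested. The ligand genes vegfa, vegfb and vegfc were all tested in both generations and not called. The most abundant of them, vegfc, had 9.52 FPKM in F1 BaP and 8.37 in F1 control, and 19.5 in F2 BaP and 15.9 in F2 control. Of the 8 rows for VEGF ligands, receptors and co-receptors, 6 were tested in each table and Cuffdiff called 0, with 0 at an unadjusted p under 0.05. Over all tested rows 1.67% in F1 and 1.32% in F2 were called, and 8.91% and 8.9% had such a p. A count of 0 among so few rows does not show that these genes were unchanged.

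The Tie receptors were detected in all 4 groups and not called in either generation. Levels of tek (chromosome 1, 122298391 to 122342763) were 7.24 FPKM in F1 BaP and 5.82 in F1 control, and 6.34 in F2 BaP and 6.42 in F2 control. In the authors' deposited tables its log2 fold change was 0.31 in F1 (q = 0.988, interval -0.25 to 0.87) and -0.02 in F2 (q = 0.999, interval -0.50 to 0.47). Its partner tie1 (chromosome 4, 88376417 to 88420457) had 8.03 FPKM in F1 BaP and 8.48 in F1 control, and 4.72 in F2 BaP and 5.10 in F2 control.

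For tie1 the authors' deposited tables give log2 fold changes of -0.08 in F1 (q = 0.9995) and -0.11 in F2 (q = 0.991), with intervals of -0.63 to 0.47 and -0.60 to 0.38. The level of tie1 was 1.11 times that of tek in F1 BaP and 1.46 times in F1 control, and 0.744 times in F2 BaP and 0.795 times in F2 control. The ligand genes angpt1 and angpt2 had 0.888 and 0.824 FPKM in F1 BaP against 0.761 and 0.742 in F1 control, and 1.57 and 0.531 in F2 BaP against 1.65 and 0.590 in F2 control. Among 11 rows for angiopoietins, angiopoietin-like genes and Tie partners, 8 were tested in F1 and 7 in F2. Cuffdiff called 0 in either, with 0 at an unadjusted p under 0.05. Over all tested rows 1.67% in F1 and 1.32% in F2 were called, and 8.91% and 8.9% had such a p. Here too the rows are too few for a count of 0 to show no change.

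The VE-cadherin gene cdh5 (chromosome 4, 57820536 to 57858072) had 3.62 FPKM in F1 BaP and 2.75 in F1 control, and 3.17 in F2 BaP and 3.54 in F2 control. Its log2 fold changes in the authors' deposited tables were 0.39 in F1 (q = 0.883) and -0.16 in F2 (q = 0.979). The intervals were -0.16 to 0.95 in F1 and -0.64 to 0.32 in F2.

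The scavenger receptors stab1 and stab2 were the most abundant of the 10 genes in every group. For stab1 (chromosome 4, 153779513 to 153933190), a receptor that takes up modified lipoproteins and matrix proteins, the F1 livers had 78.1 FPKM in BaP and 82.5 in control. The F2 livers had 23.7 FPKM in BaP and 14.9 in control. The authors' deposited tables give log2 fold changes of -0.08 in F1 (q = 0.9995) and 0.67 in F2. The F2 value had an unadjusted p of 0.0186 and the smallest q among the 10 genes other than s1pr3 (0.351), so it was not called. Its approximate interval was 0.11 to 1.23, against -0.80 to 0.64 in F1.

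For stab2, a hyaluronan receptor, the row spans 49362023 to 49600310 on chromosome 3, beyond the annotated end of the gene at 49550535, and it shares that span with LOC105946897, which was listed at 0.00846 FPKM or less in every group. Its levels were 22.4 FPKM in F1 BaP and 23.3 in F1 control, and 11.9 in F2 BaP and 12.4 in F2 control. The log2 fold change was -0.06 in both of the authors' deposited tables (q = 0.9995 in F1 and 0.997 in F2), with intervals of -0.72 to 0.60 in F1 and -0.58 to 0.47 in F2. Relative to stab2, the stab1 level was 3.49 times as high in F1 BaP and 3.54 times in F1 control, but 1.98 times in F2 BaP and 1.198 times in F2 control.

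The hyaluronan receptor gene lyve1 (chromosome 4, 5612966 to 5621284) had 0.585 FPKM in F1 BaP and 0.518 in F1 control. In F2 it had 1.74 FPKM in BaP and 2.63 in control. The authors' deposited tables give log2 fold changes of 0.17 in F1 (q = 0.9995) and -0.59 in F2 (unadjusted p = 0.0650, q = 0.608). The intervals were -0.94 to 1.29 in F1, the widest among the 10 genes other than s1pr3, and -1.23 to 0.04 in F2.

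**Figure D3:**
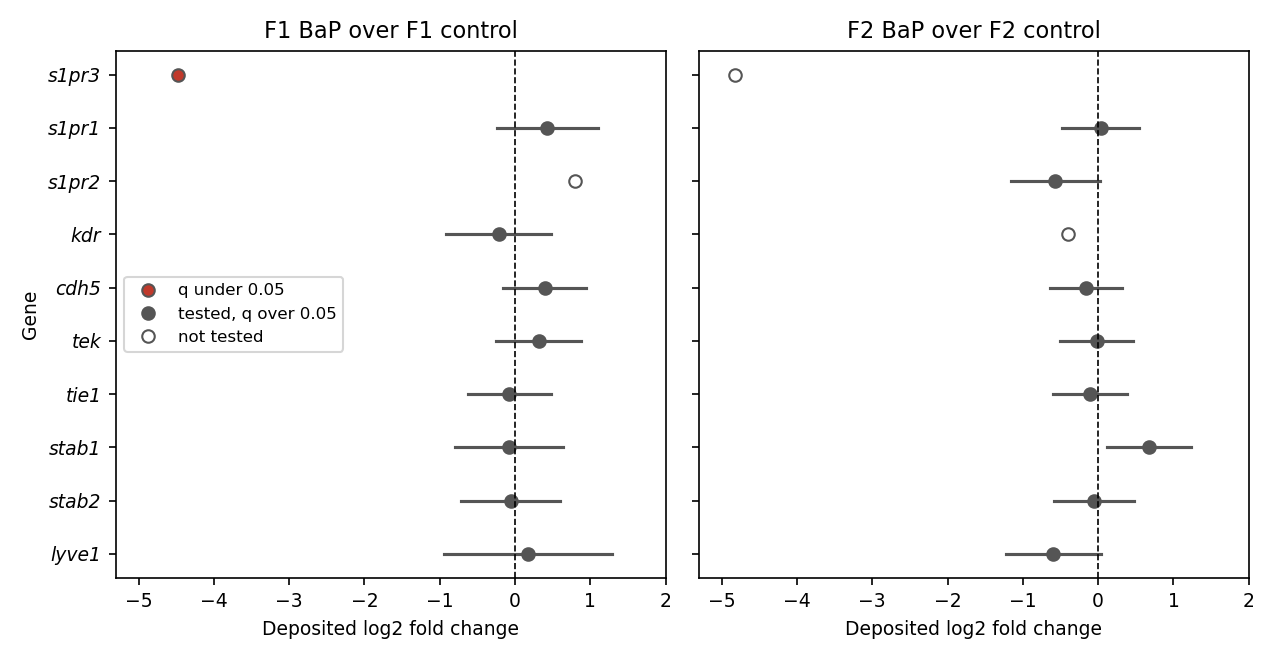
Deposited log2 fold change (BaP over control) of each gene in F1 (left) and F2 (right), with bars for the approximate 95% interval computed from the deposited p; s1pr3 has no bar because its fall chose it, and rows not tested have open symbols. Apart from s1pr3, every point lies between -0.59 and 0.80. Of the intervals drawn, that of stab1 in F2 is the one that leaves out 0, and an interval from its test statistic would not.

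For the 8 genes tested in each generation apart from s1pr3, interval bounds ran from -0.94 to 1.29 in F1 and from -1.23 to 1.23 in F2. The largest changes that any of these intervals held were 2.44 times up and 1.92 times down in F1. In F2 they were 2.35 times up and 2.34 times down. These limits hold only for standard errors taken from the deposited p. Over tested rows the normal quantile of p was a median of 2.29 times the test statistic in each generation. Intervals made from that statistic would be wider. For stab1 in F2 the statistic was 1.03, too small for such an interval to leave out 0.

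The generations were then set against each other. For 7 of the genes both changes had been tested, and the F2 change minus the F1 change was divided by a standard error made from the 2 deposited p-values, with a normal p adjusted by Benjamini-Hochberg over 11677 genes. This is an approximation on the authors' values and not a test over single frogs. Of these genes 112 passed (0.959%). Of the 7, 0 passed and 0 had an unadjusted p under 0.05, where 9.03% of all genes did. From the authors' values the difference for stab1 was 0.75 (F2 0.67, F1 -0.08, adjusted p = 0.716, interval -0.16 to 1.66). From the authors' values that for lyve1 was -0.77 (F2 -0.59, F1 0.17, adjusted p = 0.841, interval -2.05 to 0.51) and that for cdh5 -0.55 (adjusted p = 0.759, interval -1.29 to 0.18). The differences for s1pr1, tek, tie1 and stab2 lay between -0.40 and 0.0018. No difference was computed for s1pr3, s1pr2 and kdr, since each was tested in 1 table.

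Levels also differed between the generations whatever the lineage, but the tables were made separately from different frogs, so these ratios are descriptions and were not tested. Over genes tested in both tables, the median log2 ratio of F2 over F1 was -0.35 in BaP and -0.33 in control livers. The central 95% of genes ran from -2.00 to 1.38 in BaP and from -2.49 to 1.93 in control. For lyve1, tested in both tables, the log2 ratio was 1.57 in BaP and 2.34 in control, above that range in each. For s1pr3 it was -5.71 in BaP and -5.35 in control, and for s1pr2 3.04 in BaP and 4.42 in control. Neither of these was tested in both tables, so the range does not cover them, and the F1 values of s1pr3 are those that chose it.

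For stab1 the log2 ratio of F2 over F1 was -1.72 in BaP and -2.47 in control, inside the range. For cdh5 it was -0.19 in BaP and 0.36 in control, and for tek -0.19 in BaP and 0.14 in control. For tie1 it was -0.77 in BaP and -0.73 in control, and for stab2 -0.91 in each.

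The wider S1P pathway was read from a fixed list of 30 rows for synthesis, export, carriage and breakdown, of which 21 were tested in each generation. Cuffdiff called 0 in either table, beside 1.67% of all tested rows in F1 and 1.32% in F2. An unadjusted p under 0.05 was found for 1 in F1 and 3 in F2, beside 8.91% and 8.9% of all tested rows. The median log2 fold change was 0.015 in F1 and -0.08 in F2. The phosphatase gene plpp2 was the F1 gene, with 36.1 FPKM in BaP and 21.7 in control (log2 fold change 0.73 in the authors' deposited table, q = 0.442). In F2 the ceramidase gene acer3 had 6.35 FPKM in BaP and 10.8 in control, the ceramide synthase gene cers2 7.17 in BaP and 10.2 in control, and the S1P lyase gene sgpl1 1.92 in BaP and 2.85 in control. The log2 fold changes in the authors' deposited table for F2 were -0.76, -0.51 and -0.57, none called.

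The kinase gene sphk1, which makes S1P, had 5.35 FPKM in F1 BaP and 6.80 in F1 control, and 4.44 in F2 BaP and 4.26 in F2 control. The carrier gene apom was the most abundant of the list, at 543 FPKM in F1 BaP and 400 in F1 control, and at 288 in F2 BaP and 298 in F2 control. The red cell exporter gene mfsd2b had 45.9 FPKM in F1 BaP and 50.1 in F1 control, and 32.9 in F2 BaP and 28.1 in F2 control, and the endothelial exporter gene spns2 was at 0.310 FPKM or less and not tested.

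Endothelial genes in general were read from 7 fixed lists, joined without repeats to 124 rows. In F1, 96 were tested and 2 were called, 1 higher and 1 lower (2.08%, beside 1.67% of all rows). In F2, 94 were tested and 1 was called, lower (1.06%, beside 1.32%). The median log2 fold change was 0.10 in F1 and -0.09 in F2, and values above 0 made up 65.6% in F1 and 36.2% in F2, beside 53.2% and 45.8% of all tested rows.

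Of 17 junction genes tested in each generation, among them the partners of cdh5, Cuffdiff called 1 in F1 and 0 in F2. Over all tested rows it called 1.67% and 1.32%. At an unadjusted p under 0.05 there were 1 higher and 1 lower in F1 and 1 lower in F2, beside 8.91% and 8.9%. The F2 gene was esam, with 0.730 FPKM in F2 BaP and 1.10 in F2 control (log2 fold change -0.60, q = 0.514). The called gene was f11r, lower in F1. It encodes junctional adhesion molecule A, which in mammals is found in epithelium as well as endothelium. It had 22.7 FPKM in F1 BaP and 63.7 in F1 control (log2 fold change -1.49 in the authors' deposited table, q = 0.00654), and 24.6 in F2 BaP and 20.4 in F2 control (0.27, q = 0.906). The tight junction gene ocln had 19.7 FPKM in F1 BaP and 10.4 in F1 control, with 0.92 in the authors' deposited table and q = 0.0946. In the authors' deposited tables the catenin genes ctnnb1, ctnna1, ctnnd1 and jup, which bind cadherins, lay between -0.15 and 0.26 in F1 and between -0.40 and 0.06 in F2, none called.

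Among sinusoidal and scavenger genes 15 were tested in F1 and 14 in F2. Cuffdiff called 1 in F1 and 0 in F2, beside 1.67% and 1.32% of all tested rows. In F1, 2 had an unadjusted p under 0.05, ltbp4 and oit3, and in F2 0 had, beside 8.91% and 8.9%. For oit3 the levels were 45.4 FPKM in F1 BaP and 27.6 in F1 control (log2 fold change 0.72, q = 0.301). In F2 they were 29.9 in BaP and 40.6 in control (-0.44, q = 0.725). The latent TGF-beta binding protein gene ltbp4 rose in F1, with 5.16 FPKM in BaP and 2.49 in control (log2 fold change 1.05 in the authors' deposited table, q = 0.0386), and had 4.61 in F2 BaP and 3.28 in F2 control (0.49, q = 0.590). The mannose receptor gene mrc1, which marks sinusoidal endothelium and macrophages in mammals, had 34.4 FPKM in F1 BaP and in F1 control, and 12.98 in F2 BaP and 13.1 in F2 control. The factor VIII gene f8 had 3.29 FPKM in F1 BaP and 3.69 in F1 control, and 1.35 in F2 BaP and 1.41 in F2 control.

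Of 36 other vascular markers, 26 were tested in F1, where Cuffdiff called 0 and 0 had an unadjusted p under 0.05. In F2, 25 were tested, Cuffdiff called 1, and 3 had an unadjusted p under 0.05, all lower. Over all tested rows 8.91% in F1 and 8.9% in F2 had such a p, and Cuffdiff called 1.67% and 1.32%. The called gene was apln, which encodes the vascular peptide apelin. It had 10.8 FPKM in F2 BaP and 23.4 in F2 control (log2 fold change -1.11 in the authors' deposited table, q = 0.00755), and 4.28 in F1 BaP and 4.38 in F1 control. The difference between generations did not pass for ltbp4 (F2 minus F1 -0.56, adjusted p = 0.785 from the authors' values) or for apln (-1.08, adjusted p = 0.347 from the authors' values). The adhesion gene pecam1 had 0.947 FPKM in F1 BaP and 0.875 in F1 control, and 1.06 in F2 BaP and 1.24 in F2 control.

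Endothelial transcription factors gave 0 calls by Cuffdiff among 22 tested in F1 and 23 in F2, beside 1.67% and 1.32% of all tested rows. An unadjusted p under 0.05 was found for 1 in F1 and 3 in F2, beside 8.91% and 8.9%. The F1 gene was foxo1, with 9.09 FPKM in BaP and 5.26 in control (log2 fold change 0.79 in the authors' deposited table, q = 0.247). In F2 they were lyl1, klf4 and prox1. For lyl1 the levels were 7.91 FPKM in F2 BaP and 5.14 in F2 control (0.62 in the authors' deposited table, q = 0.394). The flow-responsive factor gene klf4 had 0.273 FPKM in F2 BaP and 0.653 in F2 control (log2 fold change -1.26 in the authors' deposited table, p = 0.00985, q = 0.253), and erg, a factor that drives cdh5 in mammals, had 2.44 in F1 BaP and 2.13 in F1 control, and 1.502 in F2 BaP and 1.67 in F2 control. Of the 6 lymphatic genes, which share prox1 and mmrn1 with 2 other lists, 4 were tested in F1 and 3 in F2. Cuffdiff called 0 in either generation, with 0 and 2 at an unadjusted p under 0.05. The 2 were ccbe1, untested in F1, and prox1 (-0.90 and -0.51 in the authors' deposited table for F2).

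**Figure D4:**
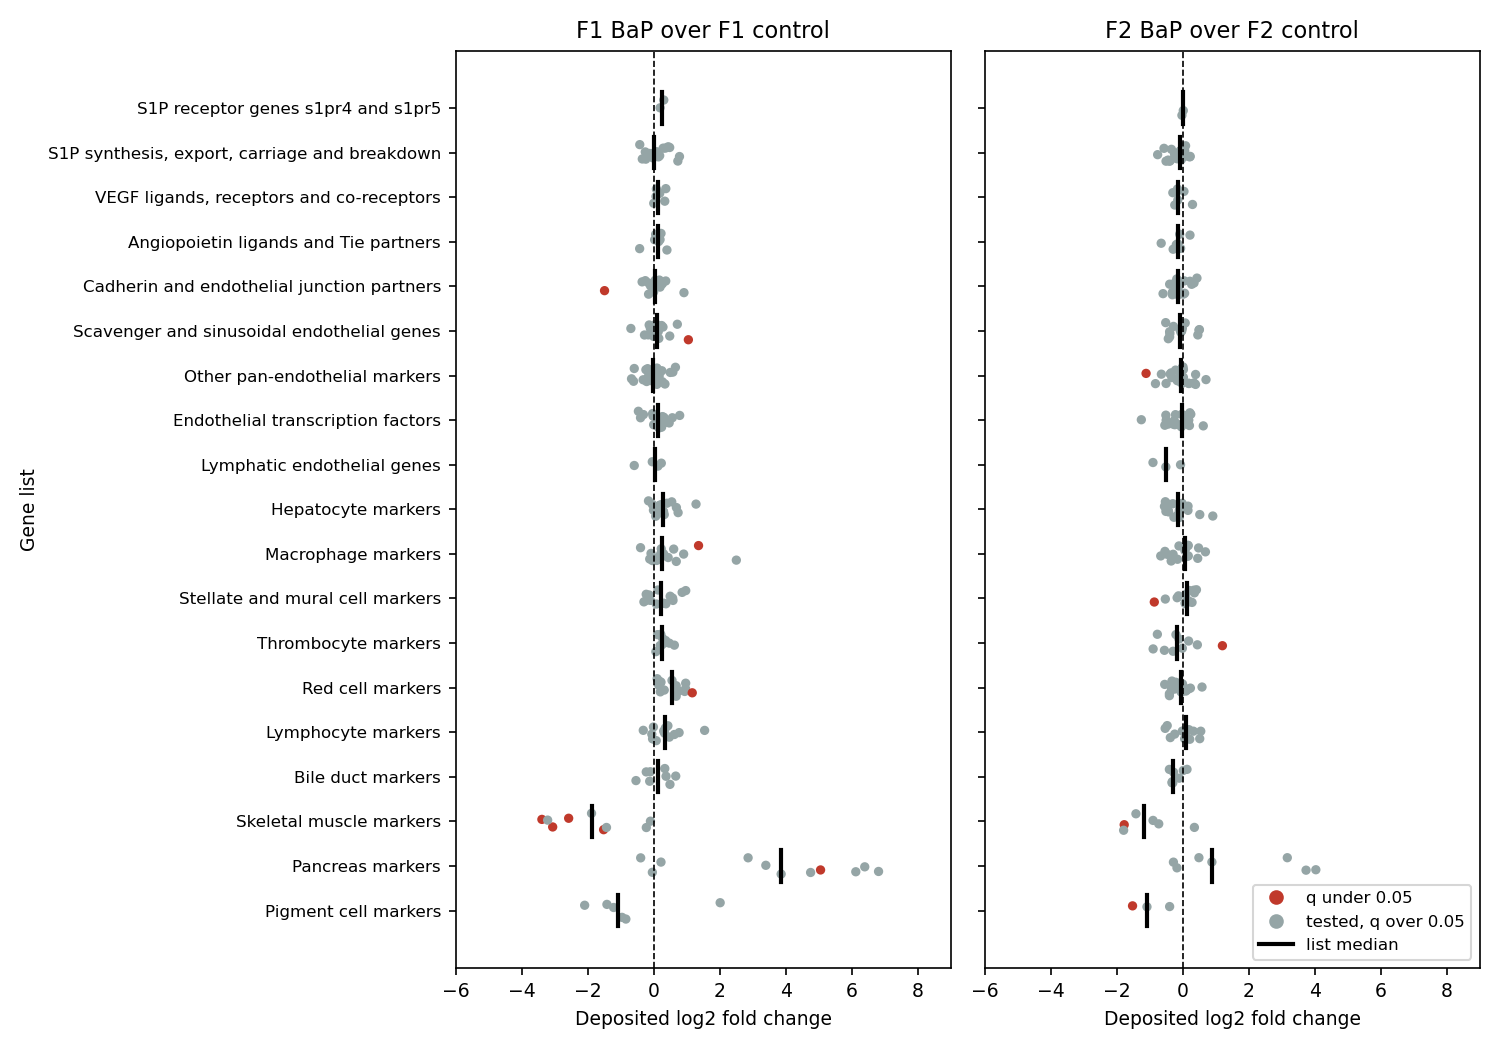
Deposited log2 fold changes of every tested gene with a finite value in the lists described here, in F1 (left) and F2 (right); points are genes, red where q was under 0.05, and black bars are list medians. Endothelial and S1P lists cluster around 0 with 3 red points among them, f11r and ltbp4 in F1 and apln in F2. The medians of the skeletal muscle, pancreas and pigment cell lists lie away from 0 and depend on which rows were tested. Untested rows are not drawn.

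Transcripts of other tissues differed in the F1 comparison as well. Of 22 skeletal muscle marker rows, 9 were tested in F1 and 4 were called, all lower (acta1, ckm, tnnt1 and tnni1). The median log2 fold change of the 9 was -1.88. Rows low in both groups were not tested, so some of the 9 may have been tested through F1 control alone. An example is tnnt1, with 0.233 FPKM in F1 BaP and 1.94 in F1 control. The count and the median depend on that filter. Most untested rows were also listed below 0 in F1, and myh2 and myh4 above it. Over all tested rows 1.67% were called in F1 and 1.32% in F2, and 8.91% and 8.9% had an unadjusted p under 0.05. The summed level of the muscle rows other than the desmin gene des.1, which mural cells share, was 6.21 FPKM in F1 BaP and 23.8 in F1 control, and 6.75 in F2 BaP and 14.8 in F2 control. With des.1 it was 24.0 and 42.8 FPKM in F1 BaP and F1 control, and 24.2 and 28.5 in F2 BaP and F2 control. In F1 BaP, tnni2 and tnnc2 were listed at 0. In F2, 1 of 6 tested muscle markers was called, acta1, lower. Pigment cell markers summed to 22.2 FPKM in F1 BaP and 41.8 in F1 control, and to 3.95 in F2 BaP and 7.56 in F2 control. Most of the F1 sums was trpm1, with 15.8 FPKM in F1 BaP and 30.6 in F1 control. It had 1.19 in F2 BaP and 1.57 in F2 control. The gene tyr was listed at 0 in both F1 groups. Cuffdiff called 0 of 6 tested pigment markers in F1, where 5 lower and 1 higher had an unadjusted p under 0.05, and called pmel lower in F2. Some pigment rows may also have been tested through a single group, such as tyrp1, with 0.205 FPKM in F1 BaP and 0.872 in F1 control. The pigment counts depend on the filter too. Of 13 tested pancreas markers 3 were called in F1, ctrc, ctrb2 and cpb1, all higher, and 7 had an unadjusted p under 0.05, all higher. Of these, ctrb2 and cpb1 were listed at 0 in F1 control, so they have no finite fold change and are not plotted. Both were thus tested through their F1 BaP level alone. Other rows may have been as well, such as cpa1, with 1.60 FPKM in F1 BaP and 0.110 in F1 control. The counts of pancreas markers depend on that filter. Of the finite values of tested pancreas markers in F1, 9 lay above 0 and 2 below. The most abundant of the list, amy2a and amy2b, were at -0.04 and 0.22 in F1, neither called. In F2 Cuffdiff called 0 of 7 tested, and 3 had an unadjusted p under 0.05, all higher. The part of these tissues in the fall of s1pr3 was not tested.

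Of the cells that share the sinusoid or the vessel with endothelium, stellate and mural cells gave 0 calls by Cuffdiff among 14 tested markers in F1, 2 of them with an unadjusted p under 0.05, both higher, and 1 among 15 in F2, tagln, lower. Of those 15, 11 had a value above 0, with a median log2 fold change of 0.12, and tagln alone had an unadjusted p under 0.05. Their summed level was 442 FPKM in F1 BaP and 371 in F1 control, and 541 in F2 BaP and 535 in F2 control. A large part of it was the channel gene kcnj8, with 162 FPKM in F1 BaP and 109 in F1 control, and 291 in F2 BaP and 275 in F2 control. The mural marker pdgfrb was at 0.317 FPKM or less in every group. Macrophage markers had 1 call among 16 in F1, the scavenger receptor gene msr1, higher (10.97 FPKM in BaP and 4.27 in control). In F1, 4 of the 16 had an unadjusted p under 0.05, all higher, 12 had a value above 0, and they summed to 529 FPKM in F1 BaP and 400 in F1 control. In F2 Cuffdiff called 0 of the 16, 0 had an unadjusted p under 0.05, and the sum was 344 FPKM in BaP and 371 in control. Of 15 tested red cell markers in F1, 1 was called, hbd, higher, 6 had an unadjusted p under 0.05, and all 15 had a value above 0, with a median log2 fold change of 0.56. In F2 Cuffdiff called 0 of 16, 0 had an unadjusted p under 0.05, and the median was -0.06. All 10 thrombocyte markers had a value above 0 in F1, where Cuffdiff called 0 and 1 had an unadjusted p under 0.05. In F2, 1 of the 10 was called, itga2b.1, higher, while 7 had a value below 0, 3 of them with an unadjusted p under 0.05, and the median was -0.16. Lymphocyte, bile duct and hepatocyte markers gave 0 calls by Cuffdiff in either generation, with 2 unadjusted p under 0.05 among them, both in F1. Of 18 tested hepatocyte markers, 15 had a value above 0 in F1 (median 0.27) and 5 in F2 (median -0.13). For lymphocyte markers it was 9 of 13 in F1 and 7 of 12 in F2. For bile duct markers it was 4 of 8 in F1 and 2 of 8 in F2. Beside these counts, Cuffdiff called 1.67% of all tested rows in F1 and 1.32% in F2. Of all tested rows, 8.91% in F1 and 8.9% in F2 had an unadjusted p under 0.05. Values above 0 made up 53.2% in F1 and 45.8% in F2.

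The genes nearest to s1pr3 in both changes were sought among 10792 single-symbol genes tested in F1 with finite values in both tables. The measure was the straight-line distance over the 2 deposited log2 fold changes, so it rests on the F1 value that chose s1pr3 and on its untested F2 value, which the choice of pseudocount moves. It is a description of these 2 values only. The nearest were myl3 (distance 2.70), myl4 (2.86), acta1 (3.24), myl10 (3.45) and tnnc1 (3.46), which encode myosin light chains, an actin and a troponin of striated muscle. For myl3 the levels were 0.205 FPKM in F1 BaP and 1.85 in F1 control, and 0.273 in F2 BaP and 1.49 in F2 control. For myl4 they were 0.172 in F1 BaP and 4.27 in F1 control, and 0.629 in F2 BaP and 2.47 in F2 control. Of the 5, acta1 was called in both generations, and the others were not called in either, with tnnc1 untested in F2. Both myl3 and myl4 differ from s1pr3 in F2 control, where s1pr3 had 0.111 FPKM.

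**Figure D5:**
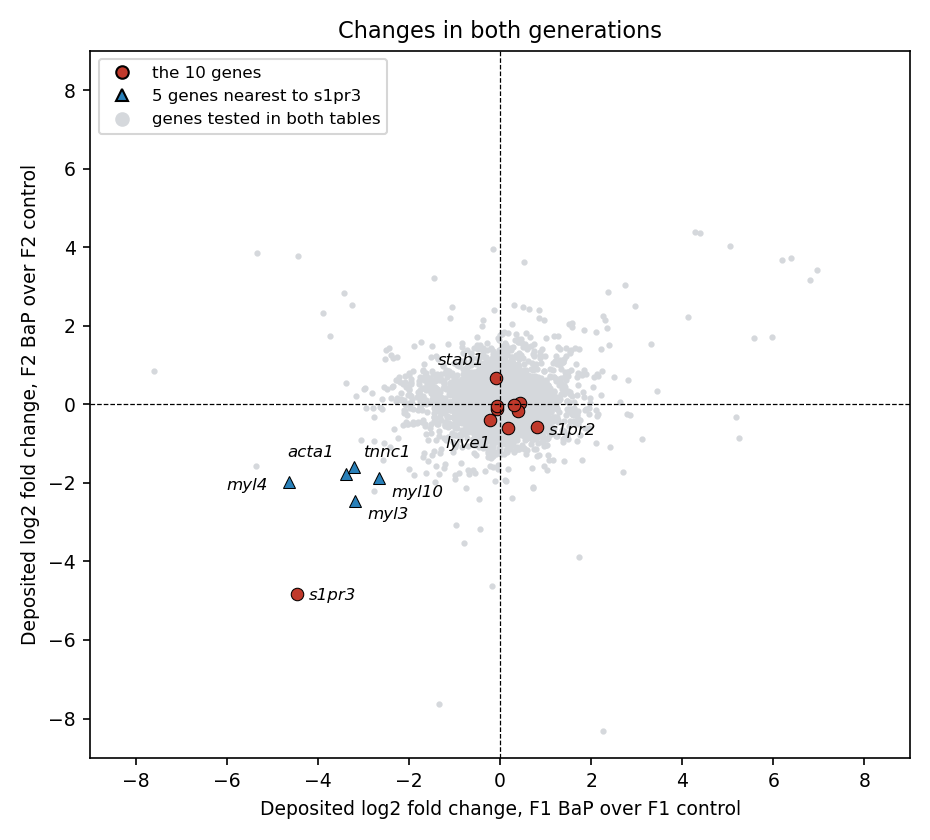
Deposited log2 fold change in F1 (x axis) against that in F2 (y axis) for genes tested in both tables (grey), the 10 genes (red) and the 5 genes nearest to s1pr3 (blue triangles). The s1pr3 point, untested in F2, lies at -4.47 and -4.82, away from the other red points, which sit near the centre.

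Rows beside s1pr3 on chromosome 1 were mostly near 0. The 3 nearest rows on each side included 1 that was tested, the cell cycle gene cks2 (137846337 to 137849582), with 2.90 FPKM in F1 BaP and 2.72 in F1 control, and 1.66 in F2 BaP and 1.82 in F2 control. Its log2 fold change in the authors' deposited tables was 0.09 in F1 and -0.13 in F2, neither called. The adaptor gene shc3 had 0.0723 FPKM in F1 BaP and 0.0959 in F1 control, and 0.0440 in F2 BaP and 0.0729 in F2 control, and the other rows were at 0.0114 FPKM or less.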

How the data were processed

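Liver RNA of 21 frogs was read as 75 bp reads from stranded poly(A) libraries, per the labels' protocols. Cuffdiff 0.0.7, Cufflinks 0.0.7, HISAT2 and Trimmomatic 0.32.1 are named, per the submitters' processing notes. Per the file headers, the deposited tables hold Cuffdiff group FPKM, the log2 fold change of BaP over control, a test statistic (a score), and the p-value and q-value of the authors. No build is named there. In F1 the finite deposited fold changes were within 1.3e-05 of the log2 ratio of the group FPKM, so they hold no pseudocount. Positions are from the RefSeq gene table of UCB_Xtro_10.0, whose ends equal those of the rows for 9 of the 10 genes.

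Members and lists were chosen with earlier results of these data known. Textbook knowledge gave 20 gene lists with 393 symbols, of which 340 matched rows by name. The result of 1 list is not reported here. Named from them were all called genes or, with no call, up to 3 with the smallest p, besides S1P, VEGF and angiopoietin genes. Others were named for their role after their values were seen. Standard errors were the fold change over the normal quantile of its p, and they are upper limits for rows at the smallest p, 5e-05. The difference test was run on simulated data first. There p was made from the same normal errors that the test assumes, so the run does not check the standard errors of the data. Computation used Python 3.11.15, numpy 2.4.6 and scipy 1.17.1. No SD accompanies group values, and p-values rest on the authors' test.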

Additional observations from a re-analysis of the deposited data

Results flagged for a closer look

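Of 43 named genes with a testable difference between generations, 2 passed, beside 0.959% of all genes with a difference. Both were named for a call in F1. That F1 change is part of the difference, so the naming favoured their passing. For f11r the F2 change minus the F1 change was 1.76 (F2 0.27, F1 -1.49, adjusted p = 0.0120 from the authors' values). For the globin gene hbd it was -1.51 (F2 -0.34, F1 1.17, adjusted p = 0.0408 from the authors' values), with 434 FPKM in F2 BaP and 550 in F2 control, and 221 in F1 BaP and 98.2 in F1 control. With standard errors from the authors' test statistic both differences lost their call (adjusted p = 0.999999 each), and 1 gene passed in place of 112. With centred fold changes from the authors' values hbd lost it (adjusted p = 0.0545).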

How the results depend on the processing

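The counts of called genes among the 10 were 1 in F1, 0 in F2 and 0 for the difference. Those in F1 and F2 were the same at q under 0.01 or 0.1, with recomputed q-values, and with a minimum of 1 FPKM. The 1 in F1 is s1pr3, which was chosen for passing that test, so its staying called is no check. The 0 for the difference was the same with an adjusted p under 0.1, a minimum of 1 FPKM, centring, and standard errors from the test statistic. Those standard errors were not applied to the changes within a generation. With them 1 gene passed in place of 112, so the 0 under that setting is little check. Nor can a stricter q raise a count of 0. Calls in the fixed lists numbered 11 in F1 and 5 in F2, among 353 rows, tested or not. They were 5 and 3 at q under 0.01, and 15 and 8 at q under 0.1. Of the 11 in F1, 4 were skeletal muscle and 3 pancreas markers, and 1 of the 5 in F2 was a muscle marker. Over all tested rows, 1.67% in F1 and 1.32% in F2 were called at q under 0.05. Centring turned the difference for tie1 from -0.03 to 0.023 and the F2 change of tek from -0.02 to 0.015, neither called. Adding 1 to each FPKM reduced the F1 value of s1pr3 to -2.20. No paired analysis was possible because the tables hold no values of single frogs, and leaving out single frogs could not be run for the same reason. Depths are unknown, and s1pr3, s1pr2 and kdr were each untested in 1 generation.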
